A study of Mus musculus with 24 samples.

Results

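The tubulin isotypes were read out in the left ventricle of mice with hypertensive left ventricular hypertrophy (LVH) and of control mice. They were chosen by gene symbol from the deposited expression table and are 10 of its 14912 genes, 5 encoding α-tubulin (Tuba1a, Tuba1b, Tuba1c, Tuba4a and Tuba8) and 5 encoding β-tubulin (Tubb2a, Tubb2b, Tubb4b, Tubb5 and Tubb6). The hypertensive-LVH group held 12 male wild-type C57BL/6J mice that were given angiotensin II (ANG II) from subcutaneous osmotic minipumps over 7 days, at 1500 ng/kg/min, and the control group held 12 such mice that received saline for the same time. Before the left ventricle was taken, the heart was flushed with saline, and polyadenylated RNA of the whole tissue was sequenced. Cardiomyocyte markers were abundant in both groups, with a summed level of 45124 to 79944 FPKM, a fragment count scaled to the length of the transcript and to the mapped fragments of the library.

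Microtubules are hollow polymers of α-tubulin and β-tubulin dimers. Each subunit is encoded by several genes, and the isotypes differ mostly in their acidic C-terminal tails, which carry most of the chemical marks that motors and other proteins read. In heart muscle cells a dense and stable microtubule network, in particular one made of α-tubulin that has lost its terminal tyrosine, is known to stiffen the cell and to resist its contraction, and pressure overload is known to make that network denser.

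The α-tubulins of the Tuba1 genes are known to be made with a terminal tyrosine, and the tails of Tuba4a and Tuba8, the α-tubulin members that fell, are shown because they lack it. The last 60 bases of the coding sequence before the stop codon are given 5′ to 3′ from GENCODE vM21 on GRCm38, with the last codon in capitals.
Tuba4a: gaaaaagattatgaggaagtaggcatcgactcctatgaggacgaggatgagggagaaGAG
Tuba8: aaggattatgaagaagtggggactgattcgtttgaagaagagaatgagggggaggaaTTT
Tuba4a ends with a glutamate codon, so its product is made without the tyrosine, and Tuba8 ends with a phenylalanine codon. Codon 40, which encodes the lysine that is acetylated inside the microtubule, is AAG in 4 of the 5 α-tubulin genes and GCC, an alanine codon, in Tuba8. The Tuba1 genes lie near each other on chromosome 15 of GRCm38, Tuba1a at chr15:98949837-98953703 and Tuba1b at chr15:98931425-98934565 on the minus strand and Tuba1c at chr15:99029891-99038110 on the plus strand. Tuba4a lies at chr1:75214228-75219865 on the minus strand and Tuba8 at chr6:121210696-121226854 on the plus strand. Tuba1a, Tuba1b and Tuba1c were 97.1% to 98.3% identical in coding sequence, whereas Tuba4a was 84.8% to 85.2% identical to them and Tuba8 78.8% to 79.9%.

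The tails of the β-tubulin genes also differ. The same 60 bases are shown for the member that fell and for 2 of those that rose, again with the last codon in capitals.
Tubb4b: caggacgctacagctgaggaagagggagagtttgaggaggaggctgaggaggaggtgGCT
Tubb5: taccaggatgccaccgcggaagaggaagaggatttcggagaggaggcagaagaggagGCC
Tubb2b: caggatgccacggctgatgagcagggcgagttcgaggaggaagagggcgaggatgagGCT
Tubb4b lies at chr2:25222160-25224702, Tubb5 at chr17:35833921-35838306, Tubb2a at chr13:34074274-34078007 and Tubb2b at chr13:34126748-34130466, all on the minus strand. Tubb2a and Tubb2b were 96.5% identical in coding sequence, and the other pairs of β-tubulin genes were 80.2% to 84.6% identical. Sequence that is shared between genes limits how reads can be assigned to one of them. Of all windows of 150 bases in the transcript, 54.7% in Tuba1a, 57.9% in Tuba1b, 46.7% in Tuba1c, 27.9% in Tubb2a, 20.1% in Tubb2b and 16.8% in Tubb4b also occurred in another gene or pseudogene. The levels of these 6 genes are therefore uncertain to the extent that the counting split reads between copies. No such window was found in Tuba4a, Tuba8, Tubb5 or Tubb6.

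The values are FPKM as deposited, which the authors' files give without read counts, so the depth of each library is unknown. They are not plain FPKM: 2741 values (0.766%) are negative, none of them in a member. Exact ties between libraries of the same group part each group into 4 sets of 3 mice. These are set 1 with mice 1 to 3, set 2 with 4 to 6, set 3 with 7 to 9 and set 4 with 10 to 12. The sets of both groups were joined because they hold the same mouse numbers, which the ties themselves do not show. The values of a gene have been rescaled in each set. The sums of the columns were 460715 to 515185 in the hypertensive-LVH group and 482319 to 567727 in the control group. The ventricular stress gene Nppa, which encodes atrial natriuretic peptide, was higher in control sample 2 (4953 FPKM) than in any hypertensive-LVH sample (340.4 to 3998 FPKM), and the other controls did not exceed 770.0 FPKM. Nppa was negative as deposited in 7 of the 12 controls, so its levels in the control group are uncertain. ANG II sample 12 had the lowest sum of the 10 members, 607 FPKM against 1051 ± 239 FPKM in its group. Results are therefore also given without these 2 libraries. Differences between groups were tested with limma on log2(FPKM + 1) and adjusted by the method of Benjamini and Hochberg over 14026 genes, and fold changes are on that scale. The fit took the rescaled values as they are, so the uncertainty of the rescaling by set is left out and the adjusted p may be too low.

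Of the 10 members, 5 were called higher in the hypertensive-LVH group at an adjusted p under 0.05 (Tuba1a, Tuba1c, Tubb2a, Tubb2b and Tubb5) and 3 were called lower (Tuba4a, Tuba8 and Tubb4b). Over all genes tested, 33.5% were called, 20.9% were called higher and 12.6% lower, so the corresponding shares of the members, 50.0% and 30.0%, lay above the background in both directions. Of all calls, 62.3% were higher, and this share was 51.7% with median-ratio scaling and 39.6% with quantile normalization, with which the members' calls did not change. The median log2 fold change was 0.32 over the members and 0.05 over all genes tested. Tubb2b and Tuba4a also passed the threshold of 0.5 on the absolute log2 fold change, as did 4.52% of all genes in the upward and 1.40% in the downward direction. In no member were all values of one group above all values of the other, which was the case for 0.756% of all genes. Without control sample 2 the calls were those given above, and Tuba1a and Tuba8 also passed the fold change threshold (0.54 and -0.50). Without ANG II sample 12, Tubb4b was no longer called (adjusted p = 0.0579, limma with Benjamini-Hochberg adjustment) and Tubb6 was called higher (log2 fold change 0.28, adjusted p = 0.0481).

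**Figure D1:**
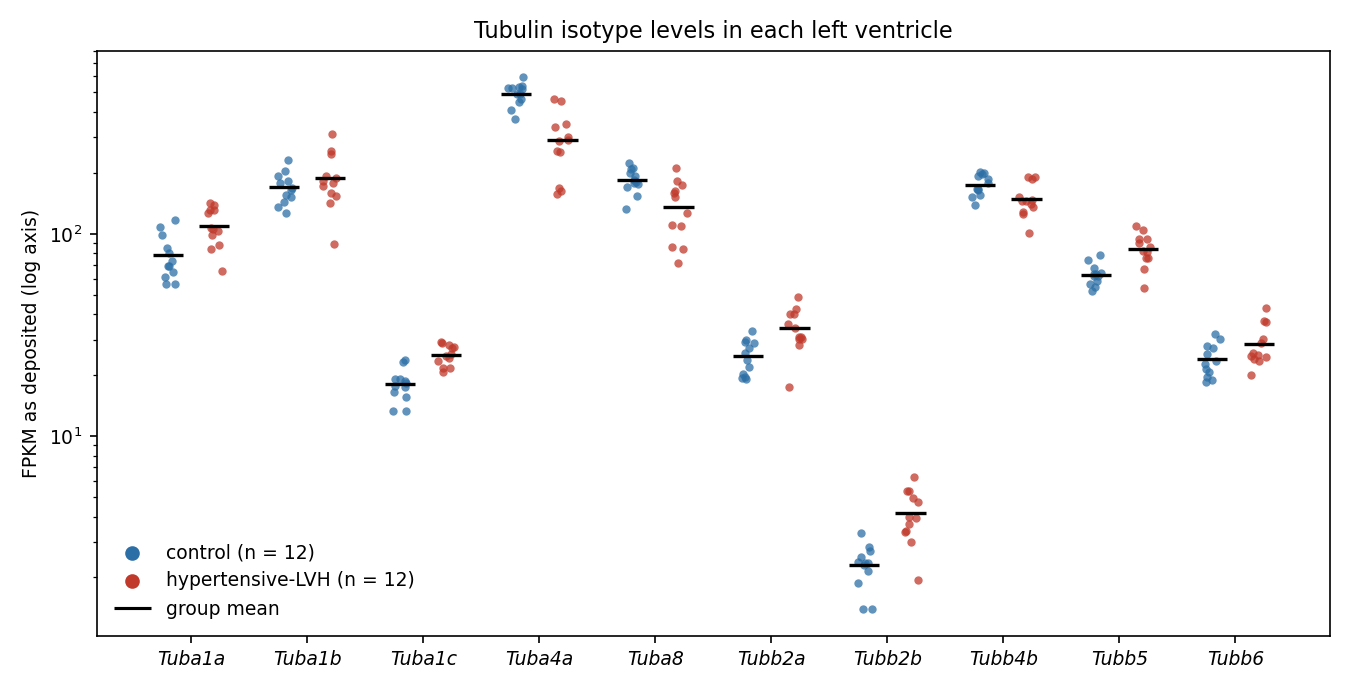
Level of each tubulin isotype in each left ventricle, as deposited FPKM on a log axis, with 12 control samples in blue and 12 hypertensive-LVH samples in red and the group mean as a black line. The red points of Tuba4a lie mostly below the blue ones, with means of 290 and 492 FPKM, and those of Tubb2b mostly above, with means of 4.15 and 2.30 FPKM.

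Tuba4a, which is known to be prominent in striated muscle, was the most abundant tubulin of the left ventricle and fell most. In the control group its level ranged from 368 to 594 FPKM with a median of 506, and in the hypertensive-LVH group from 157 to 465 FPKM with a median of 288. The groups overlapped little, with 10 of 12 hypertensive-LVH samples below the lowest control. The mean was 290 ± 102 FPKM (SD, n = 12) against 492 ± 62.1 FPKM (SD, n = 12), a log2 fold change of -0.84 ± 0.15 (SE; adjusted p = 2.29e-04, limma). It was lower in all 4 sets of samples, by a log2 difference of -0.57, -1.30, -0.71 and -0.76. Without control sample 2, the control with the lowest Tuba4a, the log2 fold change was -0.87, and without ANG II sample 12 it was -0.77. In such bulk RNA, fewer cells of a type and less RNA per cell cannot be told apart.

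Tuba8, the most divergent α-tubulin of the group and known from heart, skeletal muscle and testis, fell as well. Control values ran from 133 to 223 FPKM with a median of 182, and hypertensive-LVH values from 71.5 to 211 FPKM with a median of 139. Here the groups overlapped more, and 6 hypertensive-LVH samples lay below the lowest control. Its log2 fold change was -0.50 ± 0.15 (SE; adjusted p = 0.0112, limma), just short of the fold change threshold. The decrease was seen in each set (-0.21, -0.75, -0.22 and -0.82 on the log2 scale), but it was no longer called without set 2 (adjusted p = 0.0974) or without set 4 (adjusted p = 0.0659).

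The Tuba1 genes, which encode the α-tubulins that carry a terminal tyrosine, were higher or not called. Tuba1c, a widely expressed isotype, rose from 18.0 ± 3.23 to 25.3 ± 2.98 FPKM (SD, n = 12 each). Its control values spanned 13.3 to 23.6 FPKM with a median of 18.0, its hypertensive-LVH values 20.7 to 29.1 FPKM with a median of 25.2, and all 12 of the latter lay above the control median. The log2 fold change was 0.48 ± 0.08 (SE; adjusted p = 1.27e-04, limma), and the gene was higher in each set, by 0.26, 0.19, 0.80 and 0.67.

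Tuba1a, the main α-tubulin of developing neurons, was higher in the hypertensive-LVH group, at 65.2 to 141 FPKM with a median of 106, than in the control group, at 56.2 to 116 FPKM with a median of 71.5. The groups overlapped over much of their range, with 5 hypertensive-LVH samples above the highest control. The log2 fold change was 0.49 ± 0.13 (SE; adjusted p = 0.00630, limma), and 0.54 without control sample 2, which had the highest Tuba1a of the controls. The sets differed: the log2 difference was 0.84 in set 2 and 0.96 in set 3, but -0.04 in set 1 and 0.20 in set 4. Without set 2 the adjusted p was 0.0989, and without set 3 it was 0.105.

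Tuba1b, the α-tubulin of most cell types, showed no difference past the threshold. Its values were 88.7 to 310 FPKM with a median of 180 in the hypertensive-LVH group and 126 to 232 FPKM with a median of 166 in the control group. The log2 fold change was 0.11, with a 95% confidence interval from -0.17 to 0.39 (adjusted p = 0.563, limma), which leaves room for a difference in either direction. The sets differed in sign, with -0.33 in set 1, -0.08 in set 2, 0.73 in set 3 and 0.13 in set 4.

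Tubb4b, a widely expressed β-tubulin that is also found in cilia, was the most abundant β-tubulin and the only β-tubulin member called lower. Its values ranged from 139 to 202 FPKM with a median of 173 in the control group and from 101 to 191 FPKM with a median of 146 in the hypertensive-LVH group. The ranges overlapped, with 4 hypertensive-LVH samples below the lowest control, and the log2 fold change was -0.24 ± 0.09 (SE; adjusted p = 0.0355, limma). This call was close to the threshold: it was lost without any one of ANG II samples 1, 4, 6, 8 and 12 or control samples 3, 5, 6 and 10 (highest adjusted p = 0.0629), and without each set of samples except set 3, and also with the set as a term in the model (adjusted p = 0.0558). Within the sets the log2 difference was -0.26, -0.42, 0.07 and -0.36.

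Tubb5, a widely expressed β-tubulin that dividing cells also use, rose from 62.9 ± 7.55 to 84.6 ± 15.5 FPKM (SD, n = 12 each). Its control values lay between 52.1 and 78.1 FPKM with a median of 62.4, its hypertensive-LVH values between 53.8 and 109 FPKM with a median of 84.3, and 8 of the latter exceeded the highest control. The log2 fold change was 0.41 ± 0.09 (SE; adjusted p = 0.00128, limma), and the sets gave 0.03, 0.56, 0.71 and 0.33.

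Tubb2b, a β-tubulin of the developing nervous system, had the lowest level of all members and the largest relative increase. It was 1.39 to 3.33 FPKM with a median of 2.36 in the control group and 1.94 to 6.28 FPKM with a median of 3.94 in the hypertensive-LVH group, with 10 of 12 hypertensive-LVH samples above the highest control. The log2 fold change was 0.62 ± 0.12 (SE; adjusted p = 4.31e-04, limma), and it was higher in every set (0.24, 0.65, 1.03 and 0.58). Its close relative Tubb2a, also known from the nervous system, ranged from 19.2 to 33.1 FPKM with a median of 24.7 in the control group and from 17.5 to 48.5 FPKM with a median of 32.5 in the hypertensive-LVH group. The groups overlapped, 6 hypertensive-LVH samples being above the highest control, and the log2 fold change was 0.43 ± 0.12 (SE; adjusted p = 0.00998, limma). For Tubb2a the call was lost without set 2 (adjusted p = 0.0634) and without set 3 (adjusted p = 0.160).

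Tubb6, on chromosome 18 and known to be raised in regenerating and diseased skeletal muscle, was not called, at 28.7 ± 6.87 FPKM against 23.96 ± 4.48 FPKM (SD, n = 12 each). Its log2 fold change was 0.24 with a 95% confidence interval from 0.02 to 0.45 (adjusted p = 0.0997, limma). In set 1 and set 2 the difference was -0.08 and -0.21, and in set 3 and set 4 it was 0.79 and 0.45. It was called higher without set 2 (adjusted p = 0.0396) and, as given above, without ANG II sample 12.

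**Figure D2:**
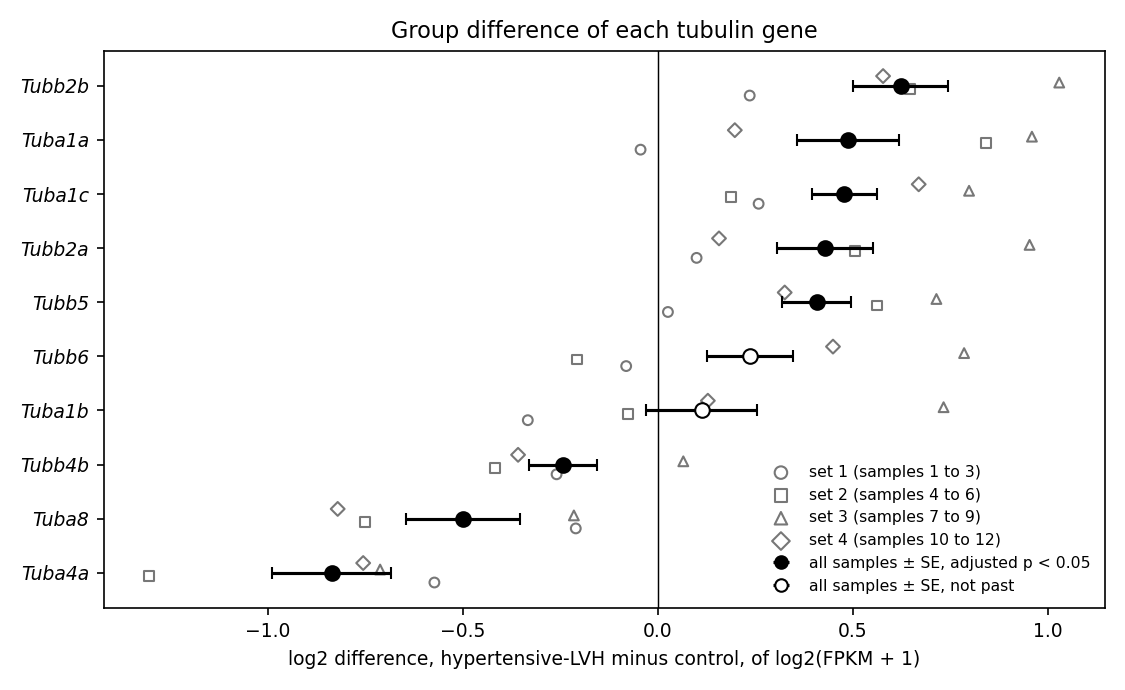
Difference in log2(FPKM + 1) between the hypertensive-LVH and the control group for each member, with the limma estimate ± SE over all samples as a circle (filled where the adjusted p is under 0.05) and the difference within each of the 4 sets of samples (set 1 to set 4) as open grey symbols. Tuba4a and Tuba8 lie left of 0 in every set, and Tuba1c, Tubb2a, Tubb2b and Tubb5 right of 0 in every set. Of all genes tested, 34.6% had the same direction in every set.

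For 9 of the 10 members, all but Tubb5, differences within sets before the adjustment were recovered from the spacing of the values. This alternative was chosen after the data were seen. It assumed values in steps of 0.01 FPKM before the adjustment, a shift and a scale for each set, and a group difference that was set aside. Under this model, all 36 of these within-set differences had the direction of the deposited values. For Tubb5 the direction before the adjustment is not known. For Tuba4a the mean difference was -202 FPKM before and -202 FPKM after the adjustment, and for Tuba1a it was 27.9 FPKM before and 31.5 FPKM after.

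The order of the levels, which FPKM allows to compare between genes because it is per transcript length, changed among the more abundant members. The rescaling of each gene in each set could affect this order. In the control group the mean fell from Tuba4a through Tuba8, Tubb4b, Tuba1b, Tuba1a, Tubb5, Tubb2a, Tubb6 and Tuba1c to Tubb2b. In the hypertensive-LVH group Tuba1b stood in rank 2 and Tuba8 in rank 4, and the other ranks were the same. Tuba4a exceeded the next gene in 12 of 12 control samples and in 11 of 12 hypertensive-LVH samples. Neighbours that were not clearly apart in the control group were Tuba8 and Tubb4b (Tuba8 higher in 9 of 12 samples), Tubb4b and Tuba1b (8 of 12) and Tubb2a and Tubb6 (7 of 12). In the hypertensive-LVH group they were Tubb4b and Tuba8 (8 of 12), Tuba8 and Tuba1a (8 of 12) and Tubb6 and Tuba1c (9 of 12).

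Expressed as shares of the summed α-tubulin or β-tubulin FPKM of a sample, which a single scaling factor per sample cannot change, several isotypes overlapped less between the groups than in their levels. The rescaling of each gene in each set can still change these shares. Shares of a sum are also tied to each other, so that a fall of Tuba4a by itself raises the other α-tubulin shares. A share that rose, such as that of Tuba1b, is thus no separate sign that the level rose. Tuba4a made up 52.2 ± 4.88% of the α-tubulin sum in the control group and 38.0 ± 6.00% in the hypertensive-LVH group (SD, n = 12 each). For Tuba8 the shares were 19.6 ± 1.90% and 18.0 ± 2.88%, and without set 4 they were 18.96% and 18.6%. The Tuba1 genes together made up 22.5% to 40.1% (median 26.8%) in the control group and 32.4% to 59.3% (median 43.8%) in the hypertensive-LVH group. Of the controls, sample 2 alone lay above the lowest hypertensive-LVH sample on this measure. Taken singly, the share of Tuba1a went from 8.32 ± 2.01% to 15.2 ± 3.82%, that of Tuba1b from 18.0 ± 2.84% to 25.3 ± 4.50%, and that of Tuba1c from 1.91 ± 0.29% to 3.57 ± 1.00%. The share of Tuba1c did not overlap between the groups, at 1.41% to 2.31% and 2.60% to 6.04%. These shares were not tested and are given as a description. Reads that Tuba1a, Tuba1b and Tuba1c have in common could move the shares among these genes. Each of them shared windows with 9 genes or pseudogenes, of which 2 were members. Reads split with the copies that are not members could also change the Tuba1 total against Tuba4a and Tuba8.

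Of the β-tubulin sum, Tubb4b made up 55.9% to 63.2% in the control group and 44.2% to 55.4% in the hypertensive-LVH group, so that the groups did not overlap. Tubb5 went from 21.8 ± 1.72% to 28.2 ± 2.89%, Tubb2a from 8.53 ± 0.90% to 11.2 ± 1.22%, Tubb2b from 0.79 ± 0.15% to 1.38 ± 0.34% and Tubb6 from 8.28 ± 1.05% to 9.49 ± 1.02% (SD, n = 12 each). Without set 4 the Tubb6 shares were 8.59% and 9.17%. The ratio of Tubb5 to Tubb4b was 0.36 ± 0.04 in the control group and 0.57 ± 0.10 in the hypertensive-LVH group. The summed α-tubulin FPKM was 943 ± 84.4 in the control group and 750 ± 190 in the hypertensive-LVH group, while the summed β-tubulin FPKM was 289 ± 33.4 and 301 ± 52.4, and 300.3 and 287.7 without set 3. The ratio of the α-tubulin to the β-tubulin sum was thus 3.28 ± 0.27 and 2.47 ± 0.31, and 11 of 12 hypertensive-LVH samples lay below the lowest control.

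**Figure D3:**
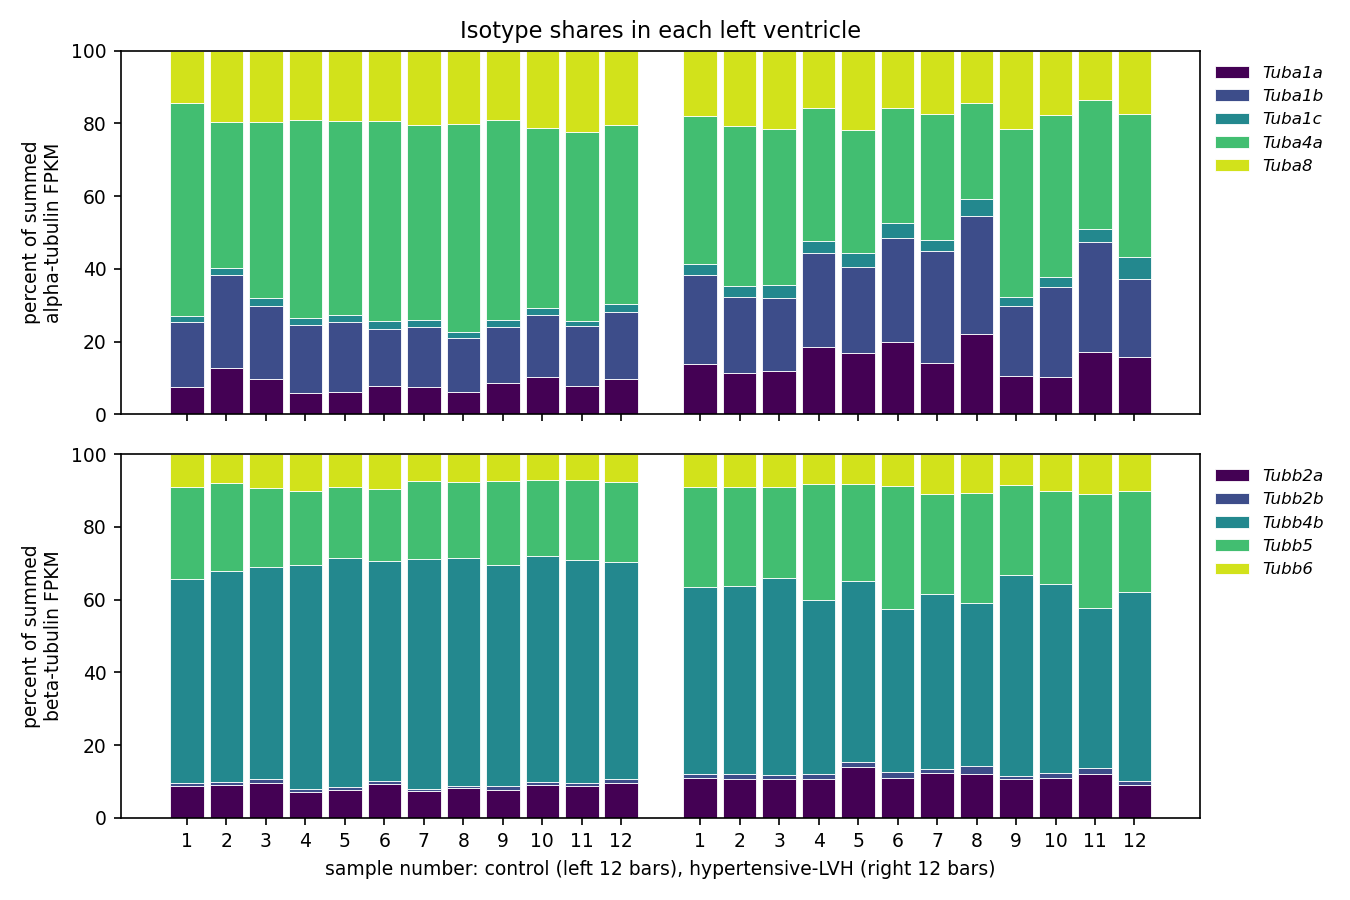
Share of each isotype in the summed α-tubulin FPKM (top) and the summed β-tubulin FPKM (bottom) of each sample, in percent, with the 12 control samples on the left and the 12 hypertensive-LVH samples on the right. The Tuba4a segment is shorter on the right (38.0% against 52.2% on average), as is the Tubb4b segment (49.7% against 60.6%).

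Members also varied together among samples of the same group and set. After the mean of each group in each set was removed, Tuba8 and Tubb4b had a Pearson's r of 0.91 over the 24 samples and Tuba4a and Tuba8 one of 0.87. High values were not particular to the members that fell, since Tubb4b had an r of 0.76 with Tuba4a but also of 0.82 with Tubb2a, 0.77 with Tuba1b and 0.76 with Tubb6. Tuba1b and Tubb5 had an r of 0.90, Tubb2a and Tubb6 one of 0.91, and Tuba4a and Tubb2b one of 0.04. These values are a description, and the points share library and scaling. The genes nearest to the α-tubulin sum by the same measure, among 11448 genes, were Jph2 (r = 0.93), which encodes a protein that ties the sarcoplasmic reticulum to the T-tubules, Mrpl34 (0.92), a mitochondrial ribosomal protein gene, Actc1 (0.91), the cardiac α-actin gene, Tsc22d4 (0.90) and Opa3 (0.90), a mitochondrial protein gene. Nearest to the β-tubulin sum were Chid1 (0.90), Nacc1 (0.90), the elongation factor gene Eef1g (0.89), the actin disassembly gene Wdr1 (0.88) and the polyamine synthesis gene Odc1 (0.88).

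**Figure D4:**
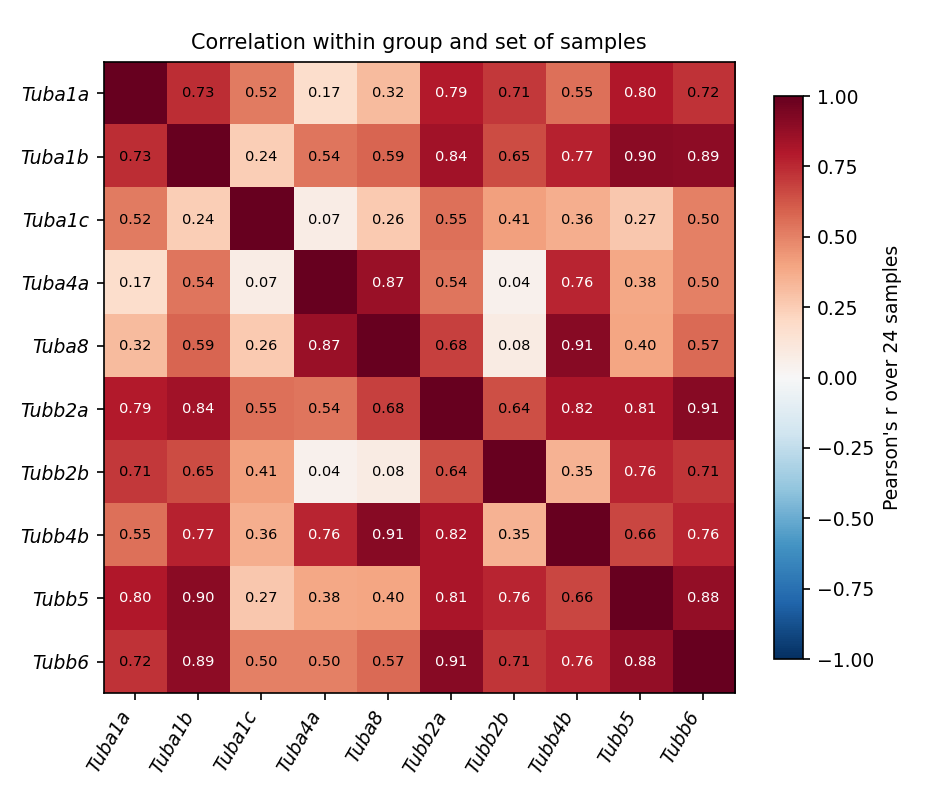
Pearson's r between members over the 24 samples, on log2(FPKM + 1) after the mean of each group in each set of samples was removed, in colour from -1 to 1. Tuba4a, Tuba8 and Tubb4b are high with each other (0.76 to 0.91), and Tubb2b is near 0 with Tuba4a and Tuba8 (0.04 and 0.08).

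Markers of several cell types moved with the groups. For comparison, 20.9% of all genes tested were called higher and 12.6% lower. Of 10 cardiomyocyte markers 7 were called lower and none higher, and their summed level was 45124 to 65991 FPKM in the hypertensive-LVH group and 60210 to 79944 FPKM in the control group. Of the fibroblast markers 5 of 10 were higher and none lower (sum 840 to 2997 against 245 to 1222 FPKM). The calls were Col1a1, Col1a2, Col3a1, Lum and Postn, whereas Dcn, Pdgfra, Tcf21, Dpt and Fbln1 were not called. Col1a1, Col1a2 and Col3a1 each held 3 negative values, which were set to 0 in the test and in the sum. Of the macrophage and monocyte markers 10 of 10 were higher (344 to 1075 against 268 to 615 FPKM). Of the markers of dividing cells 9 of 10 were higher and none lower (16.8 to 43.0 against 6.51 to 16.1 FPKM). Endothelial markers counted 1 of 10 higher and 1 lower (464 to 677 against 480 to 579 FPKM). Smooth muscle and pericyte markers counted 3 higher and 2 lower of 10 (353 to 536 against 283 to 482 FPKM). Of 9 tested T and B cell markers 2 (22.2%) were higher and 1 (11.1%) lower, near the shares of all genes (2.25 to 9.29 against 2.54 to 5.51 FPKM). Schwann cell and neuron markers counted 1 of 10 higher (9.29 to 24.3 against 7.00 to 16.1 FPKM). Of the 5 hypertrophy markers 4 were higher, among them Nppa with 7 and Myh7 with 3 negative values, which were set to 0 in the test. No marker was at 0 in every sample.

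Within groups and sets, Tuba4a had an r of 0.83 and Tuba8 one of 0.84 with the cardiomyocyte marker sum, and of -0.63 and -0.58 with the fibroblast marker sum. Tubb4b had an r of 0.68 with the cardiomyocyte sum. Of the members that rose, Tubb2b had its highest r with the macrophage marker sum (0.83), followed by the T and B cell sum (0.67). Tuba1a had its highest with the endothelial sum (0.72), followed by the Schwann cell and neuron sum (0.52). Tubb5 had 0.66 with the Schwann cell and neuron sum and 0.62 with the macrophage sum. Tubb2a had none over 0.46 and Tuba1c none over 0.29 with any of these cell type sums. The part of these cell types in the differences of the tubulin genes was not tested.

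The genes that surround tubulin in its life cycle were counted by role. Newly made tubulin is folded by the chaperonin CCT with its partner prefoldin, of whose 14 genes 7 (50.0%) were called higher and 2 (14.3%) lower, against 20.9% and 12.6% of all genes tested, but 1 higher and 4 lower with median-ratio scaling, 5 and 4 with quantile normalization, and 3 and 1 without set 4. All of these changes were under the fold change threshold. Of the 7 genes for tubulin cofactors, which assemble the dimer, 1 (14.3%) was called higher and none lower. Of the 10 genes of the γ-tubulin complex, which starts new microtubules, 1 (10%) was higher and 2 (20%) lower. The 4 genes for the decay of tubulin mRNA that free tubulin sets off were all uncalled, with a median log2 fold change of 0.04. This decay reads the first residues of the nascent chain through TTC5, and the codons that follow the start, in capitals, encode arginine, glutamate and cysteine in 5 of 5 α-tubulin genes and arginine, glutamate and isoleucine in 5 of 5 β-tubulin genes, as shown for one of each.
Tuba4a: atgCGCGAGTGC
Tubb5: atgAGGGAAATC
Ttc5 itself stood at 7.71 ± 1.26 FPKM in the hypertensive-LVH group and 7.18 ± 0.84 FPKM in the control group (adjusted p = 0.387, limma).

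Among the enzymes that modify tubulin, 1 gene changed by more than the threshold. The counts below stand against 20.9% of all genes tested called higher and 12.6% called lower. Ttll1, which encodes the catalytic subunit of an enzyme that adds glutamate chains to tubulin tails, fell from 59.4 ± 11.0 to 29.6 ± 9.00 FPKM (SD, n = 12 each), a log2 fold change of -1.02 ± 0.14 (SE; adjusted p = 1.44e-05, limma), and every hypertensive-LVH sample lay below the control median. Of the other 11 tested genes for polyglutamylation and glycylation, 1 was called higher and none lower. Of the 5 tested genes for removing and restoring the terminal tyrosine, 1 was higher: Svbp, which encodes the partner of the vasohibin enzymes that remove it, stood at 15.0 ± 2.33 against 12.7 ± 1.65 FPKM (adjusted p = 0.0290, limma) and is named here after its value was seen. No gene of this list was called higher with median-ratio scaling, quantile normalization or the replicate number as a block, or without set 2 or set 3. The same held without ANG II sample 8 or 11 or control sample 4, and 2 were called higher without ANG II sample 9. Of the 3 acetylation genes 1, the deacetylase gene Hdac6, was higher (log2 fold change 0.23, adjusted p = 6.49e-04, limma), also named after its value was seen.

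Of the 8 tested genes for tubulins other than the members, 1 (12.5%) was higher and 1 (12.5%) lower, against 20.9% and 12.6% of all genes tested. Tubb3, the β-tubulin that marks neurons, rose from 1.09 ± 0.69 to 2.59 ± 1.21 FPKM (SD, n = 12 each), a log2 fold change of 0.79 ± 0.20 (SE; adjusted p = 0.00436, limma). A negative Tubb3 value in 1 sample was set to 0 for these figures. Like Tuba1a, Tubb3 differed in set 2 and set 3 (1.76 and 1.15 on the log2 scale) more than in set 1 and set 4 (0.07 and 0.16), and it was not called without set 2 (adjusted p = 0.0906). The median of this list was -0.04, against 0.05 over all genes tested.

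Of 30 tested genes for microtubule-associated proteins, which bind the polymer, 12 (40%) were higher and 3 (10.0%) lower, against 20.9% and 12.6% of all genes tested, and 9 and 6 with quantile normalization. Clip3, a gene for a linker protein of the CLIP family, rose by 0.63 ± 0.17 and Map1a, a gene for a stabilising protein known from neurons, by 0.53 ± 0.15 on the log2 scale (SE; adjusted p = 0.00667 and 0.00830, limma). Without set 2, 4 genes of this list were higher and 5 lower, and neither Clip3 (adjusted p = 0.154) nor Map1a (adjusted p = 0.229) was called.

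Of 13 tested genes for severing and destabilising proteins, 6 (46.2%) were higher and 1 (7.69%) lower, against 20.9% and 12.6% of all genes tested, but 2 and 1 without set 2, and 2 and 2 with quantile normalization. Stmn1, which encodes stathmin, a protein that holds free tubulin dimers, rose from 10.7 ± 2.96 to 21.1 ± 5.87 FPKM (SD, n = 12 each), a log2 fold change of 0.91 ± 0.15 (SE; adjusted p = 7.64e-05, limma), and all 12 hypertensive-LVH samples lay above the control median. Kif2c, which encodes a kinesin that depolymerises microtubules in mitosis, rose from 0.46 ± 0.18 to 1.17 ± 0.49 FPKM (log2 fold change 0.55 ± 0.10, SE; adjusted p = 2.19e-04, limma). Markers of dividing cells rose with these genes, as given above.

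The motors that run on microtubules, kinesin-1 and dynein, had 9 of 25 tested genes (36.0%) higher and 2 (8.00%) lower, against 20.9% and 12.6% of all genes tested, and 4 and 1 without set 2. Dynlt1b, a dynein light chain gene, rose from 7.44 ± 2.70 to 14.0 ± 4.84 FPKM (SD, n = 12 each), a log2 fold change of 0.85 ± 0.20 (SE; adjusted p = 0.00259, limma).

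**Figure D5:**
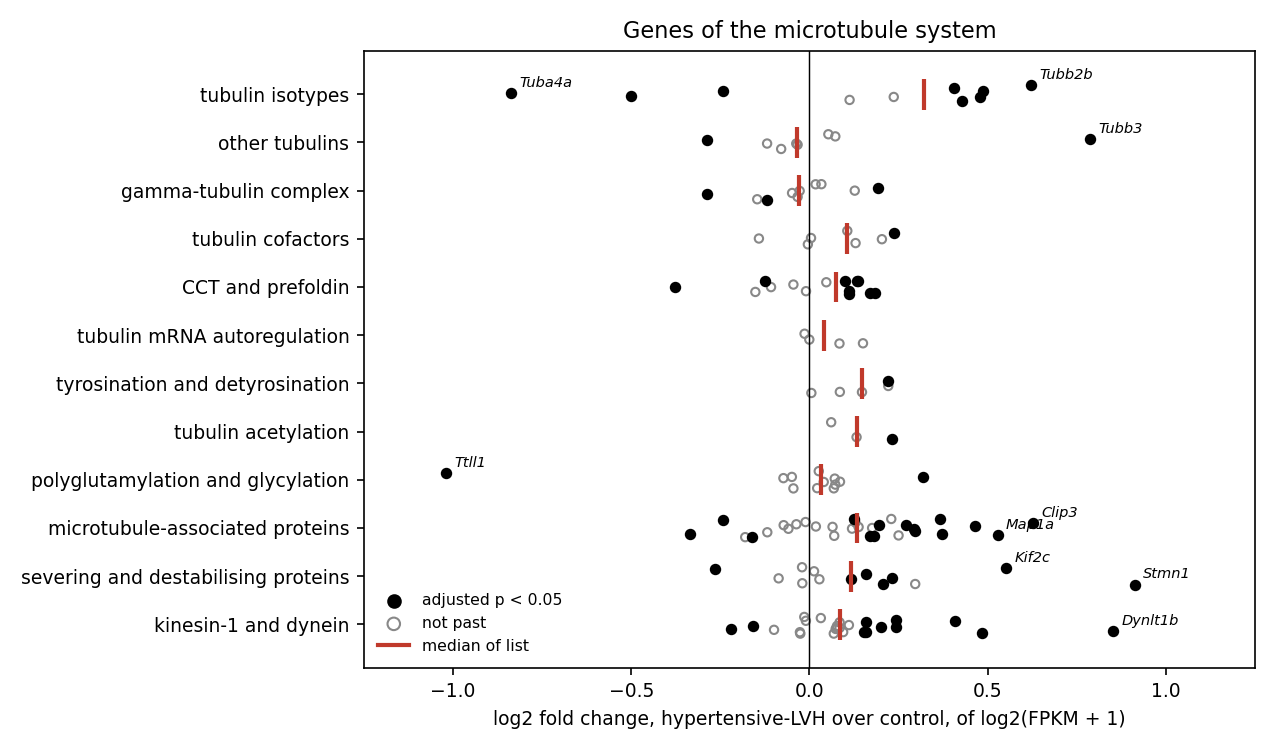
Log2 fold change between the hypertensive-LVH and the control group, on log2(FPKM + 1), of each tested gene in the tubulin isotypes and in 11 lists of the microtubule system, with filled points for an adjusted p under 0.05, open points for the rest and a red line at the median of each list. Names mark the genes that also passed 0.5 on the absolute log2 fold change, with Ttll1 at -1.02 and Stmn1 at 0.91 at either end.

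Promoters were compared because Tuba4a, Tuba8 and Tubb4b fell together. RefSeq windows of 250 bases before the start on GRCm38.p6 matched 8 members, all but Tubb2b and Tubb6, and are printed for these 3 genes 5′ to 3′ on the strand of the gene, with CCAAT and GGGCGG on either strand in capitals. The Tuba4a window is chr1:75219295-75219544 on the minus strand, the Tuba8 window chr6:121210484-121210733 on the plus strand and the Tubb4b window chr2:25224703-25224952 on the minus strand. RefSeq and GENCODE place the start of some genes differently, so the Tuba4a window lies within the GENCODE gene given above and the Tuba8 window runs past its start.
Tuba4a: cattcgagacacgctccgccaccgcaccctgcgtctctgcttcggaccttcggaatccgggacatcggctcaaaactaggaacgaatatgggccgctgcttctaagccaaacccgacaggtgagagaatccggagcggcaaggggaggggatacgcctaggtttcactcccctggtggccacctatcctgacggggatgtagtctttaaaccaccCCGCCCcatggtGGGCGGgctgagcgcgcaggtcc
Tuba8: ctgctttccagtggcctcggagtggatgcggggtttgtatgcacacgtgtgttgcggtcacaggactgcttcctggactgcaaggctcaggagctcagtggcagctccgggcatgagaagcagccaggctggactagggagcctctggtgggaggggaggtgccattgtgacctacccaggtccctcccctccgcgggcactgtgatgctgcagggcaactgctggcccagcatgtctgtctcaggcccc
Tubb4b: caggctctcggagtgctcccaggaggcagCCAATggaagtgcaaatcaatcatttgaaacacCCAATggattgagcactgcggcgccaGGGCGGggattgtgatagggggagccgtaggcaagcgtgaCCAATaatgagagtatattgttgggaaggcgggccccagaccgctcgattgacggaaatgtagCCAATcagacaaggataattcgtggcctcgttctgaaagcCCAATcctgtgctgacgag
Tubb4b held 5 matches to CCAAT, and Tuba4a and Tuba8 held none, whereas 33.8% of 32851 windows of all genes held at least 1. Among the members that rose, Tubb5 held 2 such matches and Tuba1a and Tuba1c 1 each. GGGCGG, present in 32.7% of windows, matched 2 times in Tuba4a, in Tuba1b and in Tubb2a, 1 time in Tubb4b and in Tuba1a, and not in Tuba8. TATAAA, present in 12.4% of windows, was found in Tubb2a among the 8 members. The CArG box and the MEF2 motif, which mark many muscle genes and were present in 1.47% and 2.92% of windows, were not found in any of the 8. The E-box CANNTG, present in 66.2% of windows, was found in all 8 members, and CACCC, present in 52.0%, in all but Tuba1b and Tuba8. Of the motifs searched, the 3 members that fell thus shared CANNTG, as did the members that rose, and the absence of a motif from a window says nothing about its factor.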

How the data were processed

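Whole left ventricle RNA of 24 mice was analysed, 12 per group. The other mice of the study were not analysed here. The authors deposited 1 FPKM value per gene and sample, by gene symbol. Bowtie2, HISAT and RSEM are named in the submitters' processing notes, without versions, and the genome build is not given in the sources used here. That FPKM had been adjusted in 4 sets of samples was inferred from negative values and from exact ties between libraries. The methods name no such step, and the unit was recorded as other than plain FPKM for that reason. Negative values were set to 0 for log2(FPKM + 1) and for the means, SDs and sums of FPKM of genes. The members held no negative value, and the sums of the columns use the deposited values. Tests covered genes whose mean reached 0.1 FPKM, made with limma 3.58.1 in R 4.3.3 with an intensity trend and no covariate. Genes were called at an adjusted p under 0.05 (Benjamini-Hochberg, two-sided), with 0.5 as the second threshold on the absolute log2 fold change. The fit was tested on simulated data. Other values were computed in Python 3.11.15 with numpy 2.4.6, pandas 2.3.3, scipy 1.17.1 and Biopython 1.88. Gene positions and coding sequences are from GENCODE vM21 on GRCm38 and promoter windows from RefSeq on GRCm38.p6, matched by symbol, and motifs were searched on both strands. The tail sequences of the Tuba1 genes are not reported here. The depth in counts is unknown, so no counting intervals are given. Named genes are the 10 members, the genes of each list past both thresholds (at most 3 in each direction) and the 5 genes nearest to each tubulin sum. Members and lists were chosen with earlier results of these data known. Within-set differences and shares were not tested. Alternatives changed the pseudocount to 0.1, dropped the filter or raised it to 1 FPKM, dropped the intensity trend, applied quantile normalization or median-ratio scaling, added the set or the replicate number (as a block) to the model, or left out 1 set or 1 mouse.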

Additional observations from a re-analysis of the deposited data

How the results depend on the processing

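Tuba1c, Tuba4a, Tubb2b and Tubb5 kept their direction and their call under all 36 alternatives tried for each. Tuba1b, which was not called, changed sign once, to -0.094 without set 3. Without set 1, 7 members passed both thresholds in place of 2, and without set 4, 4 did (Tuba4a and Tubb2b with Tuba1a and Tubb2a). With 1 mouse left out at a time, 2 to 4 members passed both thresholds, 4 of them without ANG II sample 2, 3 or 12 or control sample 2, 3 or 6. The count of members called lower was 1 without set 2 and 1 without set 4, and the count called higher was 3 without set 3. Leaving out 1 mouse gave 5 to 6 members called higher and 2 to 3 called lower. Over all genes, 1489 passed both thresholds with a pseudocount of 0.1 in place of 831, quantile normalization called 1922 higher and 2930 lower in place of 2928 and 1769, and without set 2 there were 1173 higher calls and 552 genes past both thresholds. Whether the replicate number pairs the samples is not known. For 12 of 12 pairs the deviations from the group means were correlated at under 0.1 (-0.56 to -0.00). No ANG II sample correlated best with the control of its own number. Rescaling by set can by itself move the deviations of the groups in opposite directions, so these values cannot show whether the samples were paired. With the replicate number as a block, 1586 genes were called higher, all 8 members called without the block were called, and Map1a was not (adjusted p = 0.0559). The group differences in the shares of Tuba4a, Tuba1c, Tubb4b and Tubb5 and in the ratio of the α-tubulin to the β-tubulin sum kept their sign and stayed within 1.5 times when any 1 set was left out. Those of Tuba8 and Tubb6 kept their sign but moved by more. The cause of these shifts was not tested. Depth in counts is unknown, which limits what can be said of Tubb2b, Tubb3 and Kif2c, whose control means are under 3 FPKM.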
